A study of Bos taurus with 12 samples.

Results

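The loci described here are the autosomal CpG sites and tiles that the authors' annotation places in the promoter of a gene or transcript, that is, upstream of its closest annotated feature, in a comparison of bull sperm. A locus was taken when it lay on chromosomes 1 to 29, when its listed position was in a promoter, and when the closest feature was a coding sequence (CDS), exon, intron or 5′ untranslated region (5′ UTR) and not a CpG island. Of these autosomes 23 have a listed site and 26 a listed tile in the tables analysed. This gave 1121 single CpG sites of the 13502 listed on autosomes (17730 in the whole series) and 654 tiles of 6580 (7290 in the whole series). A tile is a window of 500 bp whose start lies on a grid of 100 bp, so neighbouring tiles overlap and share CpGs. The study measured genomic DNA from sperm of male cattle by enzymatic methylation sequencing (EM-seq), which converts unmethylated cytosines with enzymes in place of bisulfite, to relate it to how fertile the daughters of a bull are. There were 12 samples, 6 labelled low daughter fertility and 6 labelled high daughter fertility, and apart from that label all were given as sperm of males. The labels give no breed, age, batch or pairing, and do not say whether each sample came from a separate bull. Whether the authors' p-values allow for spread between samples, or between bulls, is not known.

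In mammals a methyl group is added mainly to cytosines that are followed by a guanine, the CpG. Promoters rich in CpGs are usually unmethylated, also in sperm, while CpG-poor promoters and the rest of the genome are mostly methylated. Methylation at the start of a gene is known to go with silencing of that gene, and most of the sperm methylation pattern is erased and rewritten after fertilisation and in the germ line of the offspring.

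Each locus has the authors' methylation difference between the groups in percentage points, a p-value and a q-value, which is a p-value corrected for the number of loci. Which group was subtracted from which is stated neither in the labels nor in the headers, so each difference keeps the sign it has in the tables, and neither sign is read as higher or lower fertility. A locus is called here when the authors' q is below 0.05 and the difference is at least 10 points in either direction. Methylation levels and read coverage of single samples were not analysed here. The depth is therefore unknown, no spread between samples stands behind the values below, and no test between the groups was run. The difference between promoter loci and other loci was not tested either, because neighbouring loci are not independent. Coordinates are on the ARS-UCD1.2 cattle build, as in the deposited tables.

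The promoter label was first set against the coordinates. All 1121 sites and 654 tiles start upstream of their feature on that feature's strand, and the listed distance equals the distance from the start of the locus to the feature's edge, up to 9995 bp for sites and 9961 bp for tiles. Where the feature is an exon with a rank, it is the first exon for 346 of 388 sites and 239 of 258 tiles. The label is loose for others. At least 53 sites and 28 tiles lie between features of their own gene, and 5 of those sites are called. These are minimum counts, because only features listed as closest to some locus were known. Together with loci upstream of an exon of rank 2 or more they come to 90 sites, 7 of them called, and 45 tiles. The distance of a tile counts from its lowest coordinate, so 145 of the 348 tiles of plus-strand features reach into the feature, and none of the 306 tiles of minus-strand features does.

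Single CpG sites in promoters differed more often than the rest of the listed autosomal sites, and mostly in the negative direction. In all 87 of 1121 promoter sites (7.76%) were called, against 4.48% of all listed autosomal sites and 4.18% of those outside the promoter class. Of these calls 63 were negative and 24 positive. Over all autosomal sites 3.07% were called negative and 1.41% positive. By q below 0.05 alone 105 promoter sites (9.37%) passed, against 6.06% of all autosomal sites. The median difference of promoter sites was -1.03 points (quartiles -4.97 and 1.77), beside -0.71 points for all autosomal sites, and single values ran from -50.6 to 31.1 points. Sites inside gene features were called in 3.41% of cases, sites downstream of a feature in 3.98%, and sites far from any feature in 4.44%.

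Many of these calls came from a few places. The called sites belong to 43 of the 498 genes or transcripts that have a listed promoter site (8.63%). Of these 43, 31 had 1 call, and 8 had 3 or more and together held 48 calls. A pair of them, a transcript and an unnamed gene on chromosome 21, held 26 calls, and without both the share called was 5.77%. Counted once each, 26 of the 43 had calls that were all negative, 12 all positive and 5 of both signs. Promoter sites that are the only one listed for their gene or transcript were called in 17 of 378 cases (4.50%), which is close to the autosomal background. That background also holds genes with many listed sites, and the share for lone sites outside promoters was not computed.

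**Figure D1:**
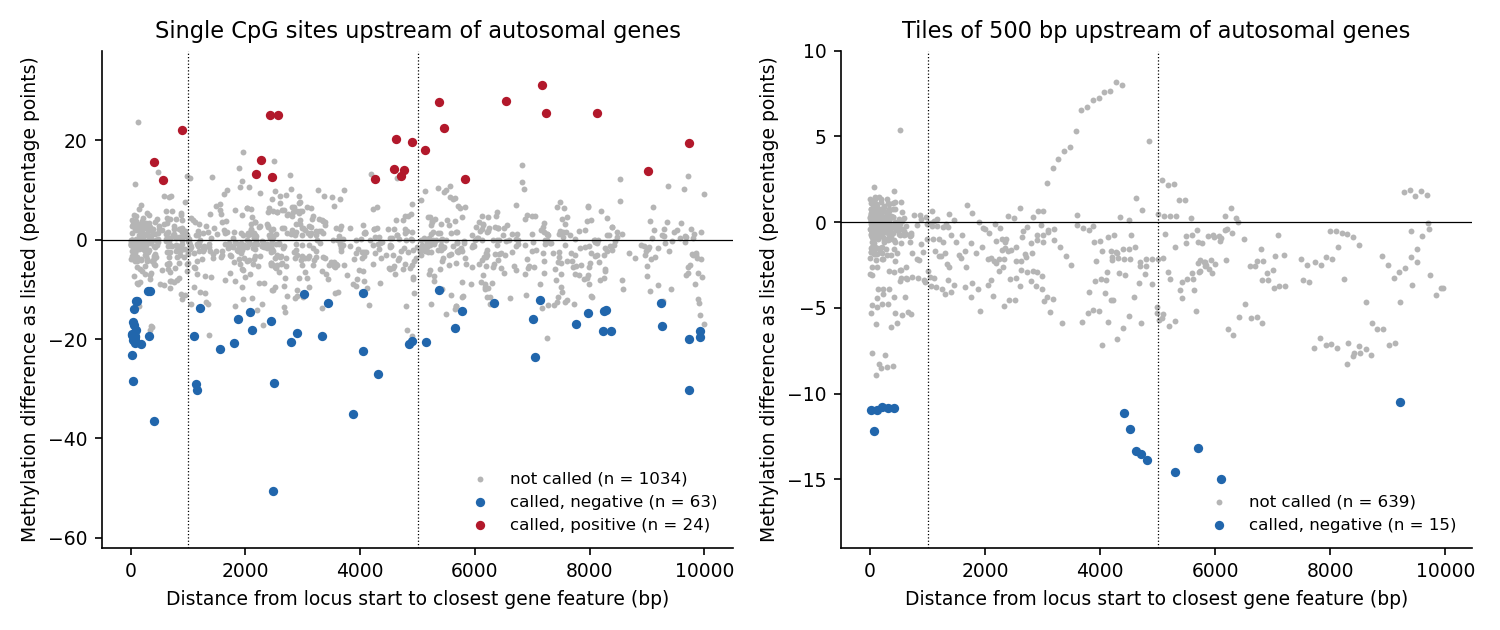
Methylation difference in percentage points, as listed, of each promoter site (left) and tile (right) against its distance in bp from the closest gene feature. Dotted lines mark 1000 and 5000 bp, and coloured points are the called loci. Called sites of both signs occur over the whole range, while the 15 called tiles are all negative.

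The share of sites called was similar at all 3 distances from the gene. From 0 to 1000 bp, 23 of 272 sites were called (8.46%), above 1000 and up to 5000 bp 34 of 466 (7.30%), and above 5000 bp 30 of 383 (7.83%). The balance of signs was 20 negative to 3 positive calls in the nearest class, 23 to 11 in the middle class and 20 to 10 in the farthest. The nearest class rests on 1 transcript, ENSBTAT00000080508. Without it 9 of 256 sites within 1000 bp were called (3.52%), of which 6 were negative. Without both places on chromosome 21 the shares are larger at larger distance, from 3.56% through 5.95% to 7.07%. The median difference was -0.69 points within 1000 bp, -1.0 points above 1000 and up to 5000 bp and -1.38 points above 5000 bp.

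The shares also differed with how the closest feature is named, though not without the places on chromosome 21. Sites closest to a transcript with no gene identifier were called in 29 of 297 cases (9.76%), and 28 of these calls were negative. Without ENSBTAT00000080508 this was 15 of 281 (5.34%), 14 of them negative. Sites of genes with an identifier and no name were called in 26 of 307 cases (8.47%), with 15 negative and 11 positive, and without ENSBTAG00000051425, the unnamed gene on chromosome 21, in 14 of 260 (5.38%). Sites of named genes were called in 32 of 517 cases (6.19%), with 20 negative and 12 positive. Within 1000 bp of a named gene 4 of 122 sites were called (3.28%), 2 of each sign, and the median difference was 0.0 points. By kind of feature, sites upstream of a 5′ UTR had a call in 14 of 256 cases (5.47%), sites upstream of a coding sequence in 8.95%, and sites upstream of an exon in 9.02%.

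The densest group of calls lies directly upstream of the transcript ENSBTAT00000080508, on the minus strand of chromosome 21. The authors' deposited table lists 16 promoter sites for it, all negative, of which 14 are called and lie in 91 bp, from 14 to 104 bp upstream of the first exon (positions 33024655 to 33024745). Their differences run from -12.4 to -23.2 points with a median of -19.1 points. The site nearest to the exon has the largest difference in the authors' deposited table, -23.2 points (q = 5.62e-06). The lone uncalled site inside the stretch, at 102 bp, stood at -8.77 points with q = 0.0628 in the authors' deposited table, between called neighbours at 100 and 104 bp. All 14 called sites are cytosines of the minus strand, and no plus-strand cytosine is listed in the stretch. The next listed promoter site, a plus-strand cytosine 357 bp upstream, stood at -6.81 points with q = 0.38 in the authors' deposited table.

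The tiles at the same place show the same sign and fade away from the exon. The promoter tile that starts 60 bp upstream is called in the authors' deposited table at -12.2 points (q = 2.4e-159), and the 6 promoter tiles beyond it run from -8.28 to -5.25 points. Of the tiles at this transcript, 4 that start inside or past the exon and cover the same CpGs are listed between -15.2 and -17 points by the authors' deposited table. They are not counted as promoter tiles, because the annotation takes a tile's position from its start. Past the exon, the listed sites, most of them annotated to CpG islands, have small differences, as the plot of this transcript shows. About 22 kb away, the transcript ENSBTAT00000077061 has 1 called site at -10.3 points, 334 bp upstream, and 4 tiles from -8.90 to -8.42 points in the authors' deposited table.

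**Figure D2:**
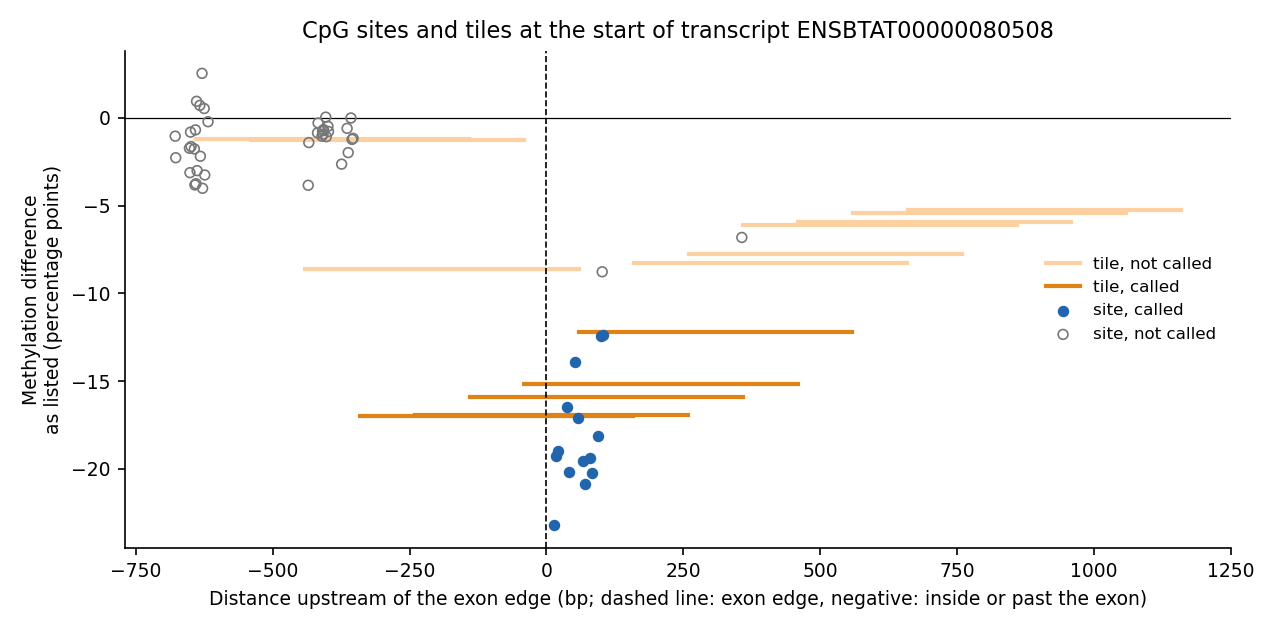
Methylation difference of CpG sites (points) and of 500 bp tiles (bars over their width) against the distance in bp upstream of the first exon of ENSBTAT00000080508. The 14 called sites sit between 14 and 104 bp upstream, and the tiles that cover them are the lowest.

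A second group on chromosome 21 had mixed signs. The unnamed gene ENSBTAG00000051425, near the start of the chromosome, has 47 listed promoter sites and 12 called, 4 negative and 8 positive. The authors' deposited table gives them values from -18.3 to 20.2 points, with a median of 1.35 points over all 47. From 4262 to 5129 bp upstream 6 called sites in a row are positive, from 12.3 to 20.2 points, with uncalled sites between them, and called sites on both sides of this run are negative. The highest of its 5 tiles, over part of this run, was at 4.73 points in the authors' deposited table. In the same group lies a site upstream of immunoglobulin heavy variable 4-59, a segment of the antibody heavy chain, at -10.9 points (q = 0.0428) by the authors' deposited table. That gene had 20 listed promoter sites, 17 of them negative and 1 called.

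On chromosome 18 the promoters of zinc finger protein 331, which belongs to a large family of DNA-binding repressors, and of the unnamed gene ENSBTAG00000051816 held 9 called sites in 1 stretch of about 113 kb, all negative. Zinc finger protein 331 (ENSBTAG00000037710) has 50 listed promoter sites with a median of -2.58 points, of which 32 are negative, 18 positive and 5 called. The lowest of these sites lies 3879 bp upstream of the 5′ UTR, at -35.0 points in the authors' deposited table. Of its called sites, 2 lie between features of the gene itself, at -12.7 and -14.4 points according to the authors' deposited table. All 21 of its promoter tiles are negative in the authors' deposited table, from -1.18 to -5.89 points, and 19 have q below 0.05. At ENSBTAG00000051816 16 of 17 promoter sites are negative, with a median of -12.7 points, and 4 are called between -17.7 and -20.7 points in the authors' deposited table. The 3 listed promoter tiles of that gene are all called, at -13.2, -14.6 and -15.0 points in the authors' deposited table, and the last is the largest difference among all promoter tiles.

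When called sites less than 100 kb apart are joined, the 87 form 33 groups. The 5 largest hold 53 calls (60.9%), and lie on chromosome 21 (15 calls in 1 group and 14 in another), chromosome 18 (9), chromosome 29 (9) and chromosome 7 (6). The other calls with a neighbour within 100 kb are few, and 24 called sites stand alone. Called sites with a neighbour were mostly negative, 50 to 13, and those alone were near balance, 13 negative to 11 positive. The sites that stand alone had the larger differences, with a median size of 24.4 points against 17.9 points.

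On chromosome 29 the group of 9 calls covers the promoters of 4 genes or transcripts and includes tripartite motif-containing protein 64, of a family of ubiquitin ligases. This gene (ENSBTAG00000049646) has 20 listed promoter sites and 4 called, at -20.9, -20.0, -19.4 and 19.5 points in the authors' deposited table. The positive value and -20.0 points belong to the same CpG, 9723 bp upstream, read on its plus and its minus strand (positions 5704333 and 5704334). The site at -19.4 points, 316 bp upstream, is a minus-strand cytosine. The plus strand of its CpG stood at 3.33 points with q = 0.678 in the authors' deposited table. Nearby, the unnamed gene ENSBTAG00000054977 had 3 called sites of 25, at -18.3, -12.7 and 19.7 points in the authors' deposited table. On chromosome 7 the transcript ENSBTAT00000076496 had 3 called sites of 10, all negative, at -28.5 points 41 bp upstream, -30.3 points 1159 bp upstream and -18.3 points 8378 bp upstream in the authors' deposited table. Its only listed promoter tile covers the nearest of these sites and stood at -7.61 points (q = 2.71e-08) there. In the same group olfactory receptor 7A17, an odorant receptor, had 2 called sites of 16, at -22.0 and -12.7 points, by the authors' deposited table. A transcript at the start of chromosome 1, ENSBTAT00000082524, has 51 listed promoter sites in a spread of signs (28 negative, 23 positive), and its 3 called sites are all negative, from -12.2 to -22.4 points, in the authors' deposited table.

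Among named genes, 23 of 297 with a listed promoter site had a call, 11 with negative calls only, 10 with positive calls only and 2 with both. The most negative site of all lies 2478 bp upstream of the 5′ UTR of BANK1 (ENSBTAG00000015297), an adaptor in B-cell signalling, at -50.6 points in the authors' deposited table. It is the only promoter site listed for that gene. Claudin 20, a tight-junction protein, had its only listed site 411 bp from the coding sequence at -36.4 points (q = 8.17e-09) by the authors' deposited table. Fatty acid binding protein 2 (FABP2), an intestinal lipid carrier, had 12 listed sites, and 2 were called, 1 at -30.2 points (q = 1.24e-05) and 1 at 13.8 points (q = 0.0112) by the authors' deposited table, 712 bp apart. Olfactory receptor, family 6, subfamily A, member 2 (OR6A2) was called at 1 of 4 sites, 1131 bp upstream, at -28.9 points with q = 3.03e-04, in the authors' deposited table. Inositol 1,4,5-triphosphate receptor associated 1 (IRAG1), a partner of the calcium-release channel named in it, stood at -28.7 points with q = 3.03e-04 in the authors' deposited table, at a site between features of its own gene, upstream of a second exon.

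Smaller negative calls fell on genes of varied function. The authors' deposited table lists solute carrier family 7 member 13, of an amino acid transporter family, at -20.3 points, and NKG2-A/NKG2-B type II integral membrane protein, an inhibitory receptor of natural killer cells, at -18.8 points. F-box and leucine rich repeat protein 19, a CpG-binding adaptor of ubiquitin ligases, had 1 called site of 11, at -14.7 points in the authors' deposited table, and its median over all 11 was 0.62 points. Microtubule associated protein 1B, a cytoskeletal protein of neurons, was at -10.1 points in the authors' deposited table, just past the threshold of size.

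Positive calls of named genes were mostly single sites with no other listed promoter site of the gene. The highest value was 31.1 points with q = 1.11e-07, in the authors' deposited table, 7162 bp upstream of extended synaptotagmin 3 (ENSBTAG00000008111), a tether between the endoplasmic reticulum and the cell membrane. Phospholipase A2 group IVA, which releases arachidonic acid from membranes, followed at 28.0 points (q = 0.00373), 6541 bp upstream, in the authors' deposited table. SEC16 homolog B, which helps to form export sites of the endoplasmic reticulum, stood at 27.6 points (q = 0.00976) by the authors' deposited table. Of the next genes, olfactory receptor-like protein OLF4 was at 25.5 points, CD96 molecule, a receptor of T and natural killer cells, at 25.4 points, and phosphodiesterase 6A, a cGMP-degrading enzyme of rod photoreceptors, at 25 points in the authors' deposited table. Below these, the authors' deposited table has sterol O-acyltransferase 1, which esterifies cholesterol, at 22.4 points, tachykinin receptor 1, the receptor of substance P, at 22.1 points, and adenylate cyclase 2, which makes cyclic AMP, at 16 points, with the positive site of tripartite motif-containing protein 64 between the last pair. Only tachykinin receptor 1, at 888 bp, and glycine-N-acyltransferase, a conjugating enzyme of mitochondria, at 558 bp (11.9 points in the authors' deposited table) had their positive site within 1000 bp. The second of these lies between features of its own gene, as does the site of sterol O-acyltransferase 1. Glycine-N-acyltransferase had 7 listed promoter sites, 4 positive and 3 negative, with a median of 1.28 points. Outside its promoter 12 tiles were listed for this gene, from -11.2 to -0.52 points, and 3 of these tiles were called.

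**Figure D3:**
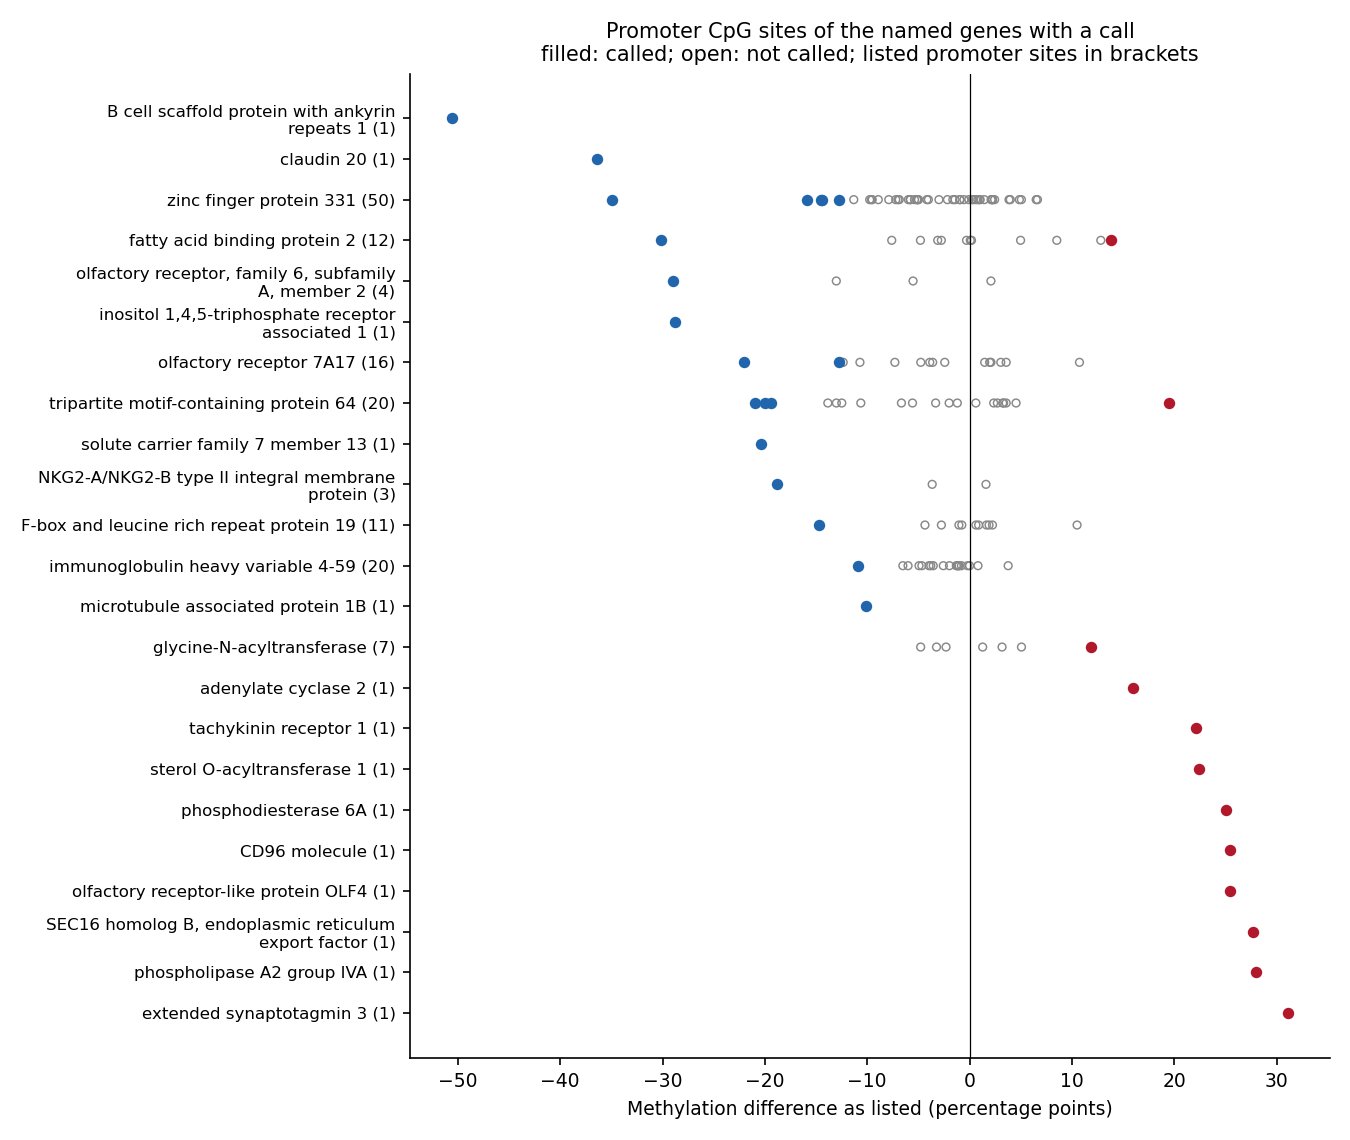
Methylation difference in percentage points, as listed, of every listed promoter site of the 23 named genes with a call. Filled points are called, open points are not, and the number of listed sites is in brackets. Of the genes, 14 have the called site as their only listed one, and in the others most sites lie nearer to 0 than the call.

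Most of these single calls could not be set beside neighbouring CpGs. For 14 of the 23 named genes the called site was the only listed promoter site of the gene, and the nearest listed site of any kind lay 7818 to 555546 bp away (median 141124 bp). Over all 87 called sites, 24 had no other listed site within 500 bp. A listed tile of any class covered 34 of the 87, and for 33 of these every such tile had the sign of the site. Such a tile takes in the site itself, so its sign is not independent of the site. The 14 called sites of ENSBTAT00000080508 are among the 34 and share the same few overlapping tiles. Only 4 of the 32 called sites of named genes had a listed tile over them. Outside their promoters 12 of 24 named genes with a called site or tile had another listed site, and 4 of them a called one, among them 3 sites of fatty acid binding protein 2 and 4 of zinc finger protein 331.

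Promoter tiles showed a different picture, with small differences, most of which passed the threshold of q, and few large ones. The authors' q was below 0.05 for 478 of 654 promoter tiles (73.1%), against 71% of all listed autosomal tiles. For 45 of these 478 the authors' own p-value was above 0.05. Among them 375 were negative and 103 positive, and the median size was 2.16 points. With the size of 10 points added, 15 promoter tiles were called (2.29%), against 2.34% of all autosomal tiles. All 15 were negative. Over all autosomal tiles 2.17% were called negative and 0.167% positive. The called tiles merge into 5 regions, each of 1 gene or transcript, of 199 with a listed promoter tile. Of the 654 promoter tiles, 17 repeat the difference and p-value of an earlier tile on the same chromosome, and they stay in these counts.

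GLIS family zinc finger 3 (GLIS3, ENSBTAG00000014467), a transcription factor of pancreas, thyroid and kidney, is the only named gene with a called promoter tile. Its 5 listed tiles, from 4415 to 4815 bp upstream of the coding sequence on chromosome 8, are all called in the authors' deposited table. The authors' deposited table gives the tile nearest to the gene -11.1 points (q = 4.14e-19), the next tiles -12.1, -13.4 and -13.5 points, and the farthest -13.9 points (q = 8.63e-31), so the difference grows in size away from the gene over these overlapping windows. No promoter site of GLIS3 is listed. The other called tiles belong to ENSBTAT00000080508 and ENSBTAG00000051816, described above, and to a pair of unnamed genes on chromosome 14. At ENSBTAG00000052622 all 28 promoter tiles are negative with q below 0.05. The 5 nearest to the coding sequence, from 16 to 416 bp, are called between -10.8 and -11.0 points in the authors' deposited table. The tiles at 16 and 116 bp have the same difference and p-value, as have those at 316 and 416 bp. The neighbour of this gene, ENSBTAG00000050469, had 41 of 43 tiles negative. Its 1 called tile was at -10.5 points with q = 6.34e-18 in the authors' deposited table, 9213 bp upstream.

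Near named genes the tiles had small differences. Within 1000 bp, 208 tiles of 134 named genes had a median of -0.13 points (quartiles -0.56 and 0.35) and none was called. In that class 79.8% of tiles differed by less than 1 point, against 42.0% of all autosomal tiles, and 4 differed by more than 3 points. Taking 1 median per gene, 73 of the 134 genes were below 0. The median of all promoter tiles was -0.28 points within 1000 bp, -1.90 points above 1000 and up to 5000 bp and -2.50 points above 5000 bp. With 1 value per gene or transcript these were -0.14, -1.0 and -2.54 points, over 167, 32 and 18 of them. Tiles that reach into their feature had a median of -0.18 points and those that do not -1.68 points, and the first all belong to plus-strand features. The first also all lie close to their feature, and within 1000 bp the 165 tiles that do not reach in had a median of -0.42 points. Tiles upstream of a 5′ UTR had a median of -0.30 points, and none of the 146 was called, although 90 had q below 0.05. Of the 15 called promoter tiles, 14 have a coding sequence as closest feature, of 218 such tiles (6.42%). The remaining call is 1 of 258 tiles upstream of an exon.

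**Figure D4:**
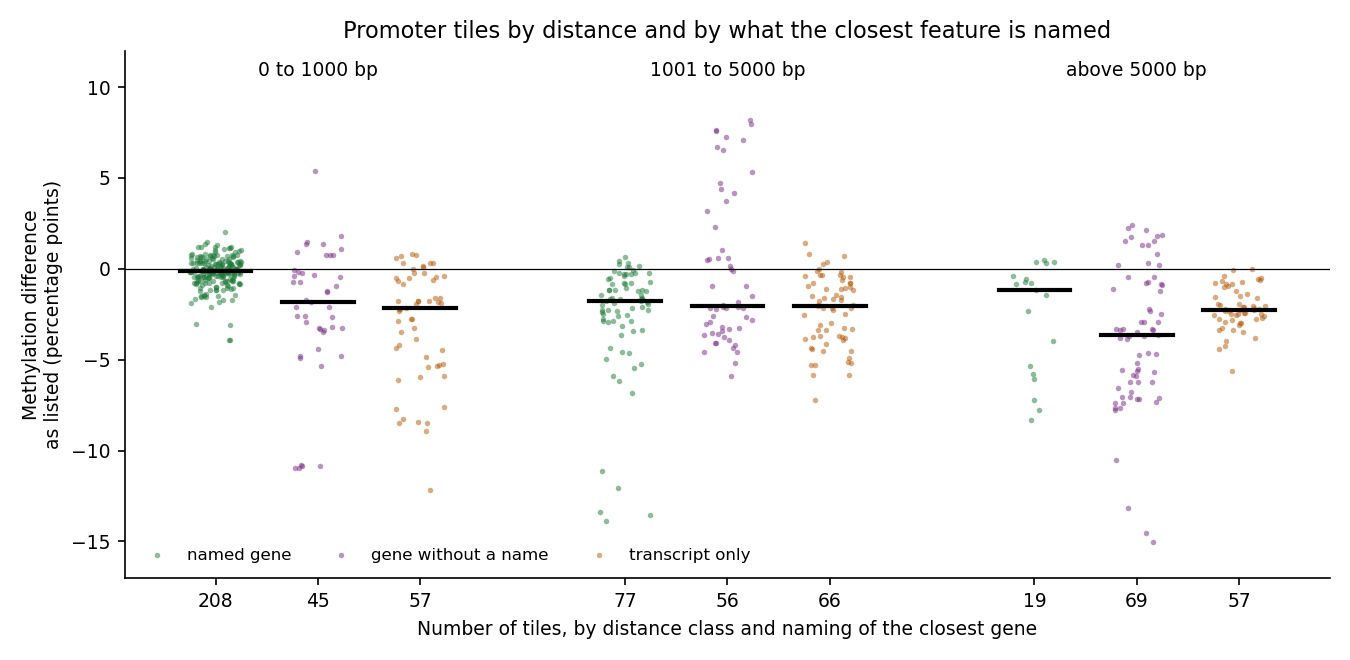
Methylation difference in percentage points, as listed, of the 654 promoter tiles by distance class and by whether the closest feature is a named gene, a gene without a name or a transcript only. Bars are medians and the axis gives the number of tiles. The 208 tiles within 1000 bp of a named gene lie close to 0, with a median of -0.13 points.

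Outside the calls, the tiles of named genes with the largest differences were negative. Prostaglandin reductase 1, which inactivates prostaglandins and leukotrienes, had a tile at -8.30 points with q = 1.96e-20 in the authors' deposited table, 8290 bp upstream. A pair of genes both named proteoglycan 3, an eosinophil granule protein, stood at -6.82 and -2.60 points in the authors' deposited table. Ubiquitin carboxyl-terminal hydrolase 17-like protein 6, a deubiquitinating enzyme, stood at -3.04 points, and queuine tRNA-ribosyltransferase catalytic subunit 1, which modifies tRNA, at -2.24 points in the authors' deposited table. Positive tiles of named genes were smaller. The authors' deposited table has zinc ribbon domain containing 2 highest, at 2.05 points (q = 0.0465), then ubiquitin specific peptidase 3, which removes ubiquitin from histones, at 1.46 points (q = 4.05e-08). ATP binding cassette subfamily F member 3, at 1.37 points, zinc finger protein 814, at 1.33 points, and sterol O-acyltransferase 1, at 1.2 points, came next in the authors' deposited table. Claudin 8, protein phosphatase 4 regulatory subunit 3B and charged multivesicular body protein 2B were between 1.06 and 1.14 points in the authors' deposited table. Sterol O-acyltransferase 1 is the only named gene with a positive called site and a positive tile with q below 0.05, and the site and its tiles lie several kb apart.

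Positive tiles of some size came almost all from 1 gene. Of the 84 promoter tiles of at least 5 points, 74 were negative and 10 positive, and they belong to 17 genes or transcripts. The unnamed gene ENSBTAG00000023249, near the start of chromosome 25, had 20 of 27 tiles positive, up to 8.21 points (q = 1.09e-94) 4274 bp upstream in the authors' deposited table. In the authors' deposited table its tiles are larger one after the other from 3074 bp (2.29 points) to 4274 bp upstream. Of its 3 listed sites 1 is called, 2428 bp upstream, at 25 points with q = 0.00101 in the authors' deposited table. No listed tile covers this site, and the nearest lies 546 bp away. The other sites stood at 15.9 and -5.46 points, and the latter lies in negative tiles. Downstream of the gene 10 tiles run from -7.78 to -4.26 points.

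Sites and tiles come from the same samples, so their match is a description. Of the 654 tiles 196 hold a listed promoter site, and the tile had the sign of the mean of its sites in 149 (76.0%). Among tiles of at least 5 points it did so in 26 of 26. Spearman's correlation over these 196 overlapping pairs was 0.58. The 44 tiles with a called site inside had a median size of 2.27 points, beside 5.42 points for the mean of their listed sites. All 4 called tiles that hold a listed site had its sign, and 3 of them hold a called site.

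**Figure D5:**
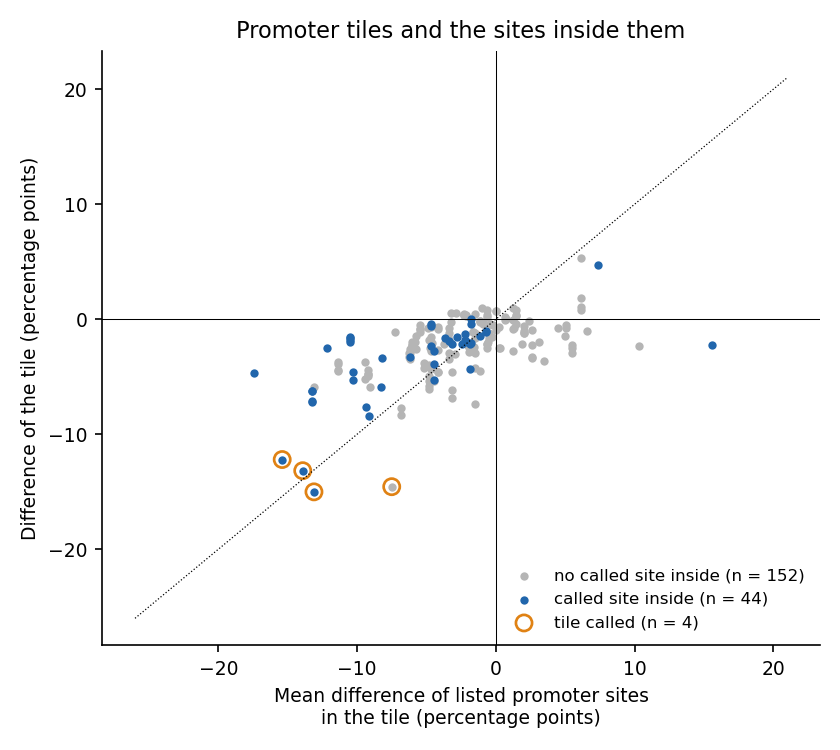
Difference of each promoter tile against the mean difference of the listed promoter sites inside it, both in percentage points, for 196 tiles, with the dotted line of equality. Most tiles lie nearer to 0 than their sites, and the 4 called tiles share the sign of their sites.

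The strands of 1 CpG often differed in sign. A CpG is methylated on both strands as a rule, since the maintenance enzyme copies the mark to the new strand. In promoters 35 CpGs are listed on both strands, and 16 of them (45.7%) have the same sign on both. The sign shares of each strand alone would give 49.8%, and Spearman's correlation of the strands was -0.005. Over these 35 CpGs, a small set, no correlation between the values of the strands was seen. The median gap between the strands was 4.81 points. Of 4 such CpGs with a call on a strand, 2 had the same sign on both, and 1 was called on both, the CpG at tripartite motif-containing protein 64 with opposite signs. Minus-strand cytosines were called in 55 of 574 cases (9.58%) and plus-strand cytosines in 32 of 547 (5.85%), and without ENSBTAT00000080508 the first share was 7.33% (41 of 559).

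Gene groups were taken by words in the full gene name, so a group can miss genes of its kind and take in others, and a listed promoter locus was needed for a gene to count. Called shares are to be read beside 7.76% of all promoter sites and 4.48% of all autosomal sites. Zinc finger genes had 13 members, and their 5 called sites of 62 all belong to zinc finger protein 331. Olfactory receptors had 30 members, with 4 of 56 sites called, 3 negative and 1 positive, in 3 genes. Genes with a ubiquitin-related name had 17 members, with 5 of 46 sites called in 2 genes, and 4 of the 5 belong to tripartite motif-containing protein 64. The list of immune genes had 12 members, with 3 of 30 sites called in 3 genes and a median of -2.11 points. Of these 30 sites 20 belong to immunoglobulin heavy variable 4-59. The list does not hold NKG2-A/NKG2-B type II integral membrane protein. The list of kinases, phosphatases and phospholipases had 23 members, and both of its called sites, of 16, were positive. They belong to phospholipase A2 group IVA and phosphodiesterase 6A, and the second enzyme is none of these kinds. Adhesion and matrix genes and transporters had 1 called site each, both negative.

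Among tiles, where 71% of the autosomal background has q below 0.05, zinc finger genes had 31 of 35 below it, 25 negative and 6 positive. Of the 25 negative tiles 19 belong to zinc finger protein 331 and 5 to GLIS3, and counted by gene 3 were negative and 2 positive. Kinases, phosphatases and phospholipases had 10 of 13 tiles below it, 3 negative and 7 positive. Genes with a ubiquitin-related name had 6 of 12, 3 of each sign. Homeobox and developmental factors had 7 members, and GLIS3 was the only one with a called tile.

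Other groups had too few loci for a count of calls to be read against the background. Genes matched by names of sperm and spermatogenesis had 4 members, with 3 sites between -1.41 and 10.1 points, none called. The members include ADAM metallopeptidase with thrombospondin type 1 motif 7, which is not a sperm gene by name. Another member, testis associated actin remodelling kinase 1, acts in germ cells and their support cells. Its 4 tiles ran from 0.32 to 0.63 points, 3 with q below 0.05, in the authors' deposited table. A list meant for chromatin and DNA methylation genes had 9 members, of which 5 are RNA methyltransferase genes by name. Its highest site, at 8.14 points, belongs to 1 of these, tRNA methyltransferase 10A, in the authors' deposited table, and none of its 6 sites was called. Among its chromatin genes, chromobox 3, a protein of heterochromatin, had a tile at -1.22 points with q = 1.31e-07 in the authors' deposited table. Neither the imprinted genes nor the markers of leukocytes and epithelium, the other cells a semen sample can hold, had a listed promoter locus, so the part of such cells in these values was not tested.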

How the data were processed

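EM-seq libraries of 12 bull sperm samples (6 low, 6 high daughter fertility) were compared by the authors. Trimmomatic, Bismark and methylKit, and the build ARS-UCD1.2, are named by the submitters' processing notes without role or version. The 2 deposited tables hold, per CpG site and per 500 bp tile, the authors' p-value, q-value and methylation difference, a signed score in percentage points under a methylKit column name, per the file headers. Neither the order of subtraction nor the adjustment behind q is given in the sources used here, nor is it said whether the authors' test allowed for spread between samples. The q-value lay below the p-value for 164 promoter sites and 478 promoter tiles. The tables hold no coverage, so depth and precision are unknown, and no coverage minimum was set.

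Loci with a position in a promoter, on chromosomes 1 to 29 and closest to a feature other than a CpG island were taken, in classes of 0 to 1000, above 1000 to 5000 and above 5000 bp. Autosomes 2, 3, 4, 12, 23 and 27 for sites, and 12, 23 and 27 for tiles, were not analysed here. Calls used q below 0.05 and at least 10 points. Counts, shares and medians were made with pandas 2.3.3 and scipy 1.17.1 under Python 3.11.15, after a check on simulated data. Called loci within 100 kb were joined into groups. No test between groups, or of gene lists, was run.

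Promoter loci, gene lists (15, matched by words in full gene names; those for cilia and cytoskeleton, growth factors and hormones, and ion channels had no call) and tests were chosen with earlier results of these data known. Named genes were taken by rule. For sites these were the 12 most negative and the 12 most positive named genes among calls, genes with 3 or more calls and genes called within 1000 bp. For tiles they were genes with a call and the 8 most negative and 8 most positive named genes with q below 0.05. Genes called as a site with a tile at q below 0.05, and up to 3 members of each list, were added. Genes without a name were to be given only with 3 or more called sites or a called tile. ENSBTAT00000077061, ENSBTAG00000023249 and microtubule associated protein 1B fall outside these rules and were chosen after their values were seen. Alternatives covered the thresholds, the adjustment, strands, feature type, distance, merging of tiles and leaving out places with many calls. Not every gene that the rules take is reported here. Promoter sequences were not used here.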

Additional observations from a re-analysis of the deposited data

How the results depend on the processing

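Of 66 values under other settings, 39 were labelled the same as the main value, 27 moved and 0 reversed. The share of negative calls was above 50% in all 17 cases with a call, and all 11 medians were below 0. Most settings take subsets of the same loci, so this is no independent check. For sites, q below 0.01 left 52 calls (4.64%), with no autosomal share at that q to set beside it. At least 20 points left 33 (2.94%), beside 266 of all 13502 listed autosomal sites. Sites upstream of a 5′ UTR gave 14 calls (5.47%) and a median of -0.37 points, and sites within 1000 bp gave 23 calls, 87.0% of them negative, with a median of -0.69 points. Without chromosome 21 there were 57 calls (5.88%). Without the 2 places with most calls, a choice made after seeing the data, 5.77% were called. With a Benjamini-Hochberg adjustment over the listed loci 82 sites were called. For tiles, at least 5 points gave 84 calls (12.8%) and at least 20 points gave 0 (0%). Merging overlapping tiles left 5 calls and a median of -0.38 points. Tiles upstream of a 5′ UTR gave 0 calls (0%) and a median of -0.30 points, and those within 1000 bp gave 6 calls and a median of -0.28 points. Without chromosome 14 there were 9 called tiles and a median of -0.63 points. Without tiles that reach into their feature, also chosen after seeing the data, the median was -1.68 points. Fewer loci enter under the settings on place and feature, and for the medians the cause was not tested. No paired analysis was possible because the deposited tables hold no values per sample and the groups share no replicate numbers, and for the same reason no sample was left out in turn. The depth that limits each value is unknown.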
